A study of Mus musculus with 10 samples.

Results

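AP-1 and the immediate early genes were followed through every source of this mouse RNA-seq series as a set of 10 named genes, taken by symbol from a total of 26764 symbols across all tables. The members were Fos, Fosb, Fosl2, Jun, Junb, Jund, Egr1, Ier2, Atf3 and Zfp36. All 10 had a row in each table of sorted immune cells (22064 symbols), and 9 had a row in the table of the cultured cells (19333 genes), where no row carried the symbol Jund. The rule takes the members by name and uses no measured value, although they were chosen with earlier results of these data known. The series comprised 10 libraries. Of these, 3 came from Apc-deleted oligodendrocyte precursor cells (OPCs) of genotype Olig2-Cre:Apc-fl/fl, and 3 came from OPCs of Apc-fl/fl littermates, called wild type here. Both genotypes carry floxed Apc, a gene whose product holds down Wnt signalling, and differ by a Cre recombinase driven from Olig2. The cells were purified by immunopanning and grown for 3 days with PDGFAA, a growth factor that keeps OPCs dividing. A further library, labelled Th1, came from cells sorted as CD4+, and 3 libraries came from cells sorted as CD11b+Gr-1+NK1.1+ and called cytotoxic macrophages. These 4 libraries came from spinal cords taken on day 18 of experimental autoimmune encephalomyelitis (EAE), an immune attack on myelin. Their donors all had the genotype Pdgfra-CreER:Apc-fl/fl, in which an inducible Cre is driven from Pdgfra, and no second genotype was sorted. The labels give no age and do not say whether animals were pooled.

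Immediate early genes are transcribed within minutes of a stimulus from factors already present in the cell, without new protein synthesis. AP-1 is a dimer of a Jun protein with another Jun protein, a Fos protein or an ATF protein, and it binds short sites in the promoters and enhancers of genes for growth, stress and inflammation. The mRNAs are short-lived, many through AU-rich elements in their 3′ ends. These genes are also known to be induced by enzymatic digestion, sorting and plating of cells, so that their levels in isolated cells can reflect handling as well as the state in the tissue.

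Promoter windows are shown for Fos, Atf3, Junb, Jun and Zfp36, the 5 members in which a searched motif was found. They include Fos and Zfp36, whose levels led the macrophage libraries, and Junb and Jun, whose balance differed between sources. Each is the 150 bases before the gene start in RefSeq on GRCm38.p6, read along the gene's strand. Of the 10 members, 8 matched a RefSeq promoter window. In the Fos window, at chr12:85473740-85473889 on the plus strand, capitals mark TGACGT, the core of a cyclic AMP response element, at position -66 from the gene start and TATAAA at position -33. In Atf3, at chr1:191183334-191183483 on the minus strand, capitals mark TGACGT on the opposite strand at position -8. Capitals in Junb, at chr8:84978749-84978898 on the minus strand, mark CCAAT at position -36. In Jun, at chr4:95052223-95052372 on the minus strand, they mark CCAAT at position -65. For Zfp36, at chr7:28379229-28379378 on the minus strand, they mark a CArG box, the site of serum response factor, at position -58.
Fos: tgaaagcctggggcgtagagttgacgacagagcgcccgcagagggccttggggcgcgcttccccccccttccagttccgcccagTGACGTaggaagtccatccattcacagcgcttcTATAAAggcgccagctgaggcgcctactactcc
Atf3: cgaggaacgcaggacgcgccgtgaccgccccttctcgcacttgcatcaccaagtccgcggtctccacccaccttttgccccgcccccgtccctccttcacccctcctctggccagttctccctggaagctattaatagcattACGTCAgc
Junb: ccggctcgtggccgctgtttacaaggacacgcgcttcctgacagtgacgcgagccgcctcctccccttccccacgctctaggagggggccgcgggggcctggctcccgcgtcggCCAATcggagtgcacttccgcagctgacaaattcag
Jun: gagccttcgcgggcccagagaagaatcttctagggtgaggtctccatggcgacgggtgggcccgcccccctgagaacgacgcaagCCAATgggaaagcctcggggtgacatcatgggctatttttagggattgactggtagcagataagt
Zfp36: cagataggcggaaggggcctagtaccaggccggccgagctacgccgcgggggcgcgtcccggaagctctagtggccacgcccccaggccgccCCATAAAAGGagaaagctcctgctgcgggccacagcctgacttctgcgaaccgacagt

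The 5 motifs were searched on both strands of the 250 bases before each gene start, of which 150 are printed, and no marked motif overlapped another. TGACGT was present in 2 of the 8 members' windows, Fos and Atf3, and in 6.5% of all 32536 windows of the same length. The AP-1 site TGANTCA was in 0 of the 8 windows and in 6.73% of all windows. TATAAA was in Fos (12.31% of all windows), CCAAT in Jun and Junb (33.81%) and the CArG box in Zfp36 (1.48%). These are matches of letters and were not tested for binding.

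At the other end of the transcripts, the AU-rich nonamer TTATTTATT was searched because ZFP36, itself a member, is known to bind it and to hasten decay of the mRNA. It was found in the 3′ UTRs of 3 of the 10 members, against 9.19% of 13375 genes whose 3′ UTR was of a length within the members' range. The sites are given below 5′ to 3′ on GRCm38 with the nonamer in capitals. That of Fos lies at chr12:85477103-85477131 on the plus strand. The Fosl2 site lies at chr5:32156871-32156899 on the plus strand, and that of Zfp36 at chr7:28376951-28376979 on the minus strand.
Fos site: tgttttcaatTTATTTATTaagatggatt
Fosl2 site: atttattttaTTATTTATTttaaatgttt
Zfp36 site: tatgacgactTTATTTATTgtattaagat

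The library labelled Th1 held 3051730 reads, against 23174908 to 23564215 in the macrophage libraries, and 6548 genes had a level above 0 in it, against 13489 to 13565. In the library labelled Th1, Cd3e and Cd4 were at 0 reads and 13 of 15 T cell markers were at 0. The markers' summed TPM (a transcript abundance corrected for length and scaled to the same sum in every library) was 66.43, almost all from Lck at 66.3 TPM, against 4.15 to 4.71 in the macrophage libraries. The label was therefore not borne out by its defining markers, and the name "the library labelled Th1" is kept. The 14 neutrophil markers summed to 25190 TPM in the library labelled Th1, with 5 of them at 0, against 434823, 437137 and 434053 TPM in the macrophage libraries, where none was at 0. The 16 macrophage and monocyte markers summed to 12415 TPM in the library labelled Th1, with 4 of them at 0, among them Ly6c2, against 34509 to 35087 TPM in the macrophage libraries. That list went both ways, with 5 markers called higher in the library labelled Th1 and 7 lower by the edgeR rule given below, and Ms4a7, for example, stood at 393.52 TPM in the library labelled Th1 against 4.07, 4.01 and 3.91 TPM in the macrophage libraries. The libraries sorted as macrophages thus held far more transcript from the neutrophil list than from the macrophage and monocyte list. The part of these cell types in the members' levels was not tested. The macrophage libraries, called A, B and C because their column codes match no replicate label, differed by more than sampling noise yet lay close to each other (common biological coefficient of variation 0.0224). No source says that they came from separate animals, so that the p-values cover the spread among these 3 libraries alone, and that spread may be technical.

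Fos, the main partner of the Jun proteins, was the second most abundant member in the library labelled Th1, after Junb, and the most abundant in the macrophage libraries. It stood at 67.8 TPM in the library labelled Th1, from 430 reads (95% exact Poisson interval 390 to 473), against 399.41, 407.54 and 406.52 TPM in the macrophage libraries. The library labelled Th1 lay below all 3 macrophage libraries, which differed among themselves by little (404.5 ± 4.43 TPM, SD, n = 3). In such bulk libraries, fewer cells of a type and less RNA per cell cannot be told apart. Fosb, a Fos protein induced by the same stimuli, stood at 0.62 TPM in the library labelled Th1, from 7 reads, and at 2.88, 2.74 and 2.94 TPM in the macrophage libraries. Fosl2, which encodes the longer-lived FRA-2 protein, stood at 0.33 TPM in the library labelled Th1, from 6 reads, and at 2.24, 2.19 and 2.14 TPM in the macrophage libraries. Both genes were thus low in every sorted library.

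Junb was the exception in direction by TPM as deposited. It stood at 275.2 TPM in the library labelled Th1, from 1507 reads, against 166.77, 198.53 and 189.57 TPM in the macrophage libraries (185 ± 16.4, SD, n = 3). It was the only member whose deposited TPM lay above that of all macrophage libraries. This direction depended on scaling. S100a8 averaged 310396 TPM in the macrophage libraries, against 13944.81 TPM in the library labelled Th1. With S100a8 and S100a9 left out of the TPM sum, the macrophage mean of Junb was 296.1. Junb encodes a Jun protein that can restrain c-JUN in some cells. Jun itself stood at 3.67 TPM in the library labelled Th1, from 36 reads, and at 20.02, 19.74 and 19.88 TPM in the macrophage libraries. Jund, the Jun family member that many resting cells express, stood at 2.83 TPM in the library labelled Th1, from 25 reads, and at 27, 29.05 and 28.24 TPM in the macrophage libraries. In both genes the library labelled Th1 lay below every macrophage library.

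Of the members outside the Fos and Jun families, Egr1, a zinc finger factor driven by serum response factor and its partners, stood at 3.18 TPM in the library labelled Th1, from 30 reads, and at 15.28, 16.13 and 16.06 TPM in the macrophage libraries. Ier2, a nuclear immediate early protein, stood at 2.02 TPM in the library labelled Th1, from 9 reads (interval 4.12 to 17.1), and at 106.58, 118.61 and 114.94 TPM in the macrophage libraries. Atf3, a stress-induced factor that pairs with Jun proteins, stood at 1.18 TPM in the library labelled Th1, from 7 reads, and at 22, 22.61 and 23.38 TPM in the macrophage libraries. All of these lay lower in the library labelled Th1 without overlap. Zfp36, the mRNA decay factor, stood furthest apart, at 1.72 TPM in the library labelled Th1, from 9 reads, and at 234.8, 249.42 and 240.22 TPM in the macrophage libraries. Summed over the members, the level was 358.6 TPM in the library labelled Th1 and 997, 1067 and 1044 TPM in the macrophage libraries.

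**Figure D1:**
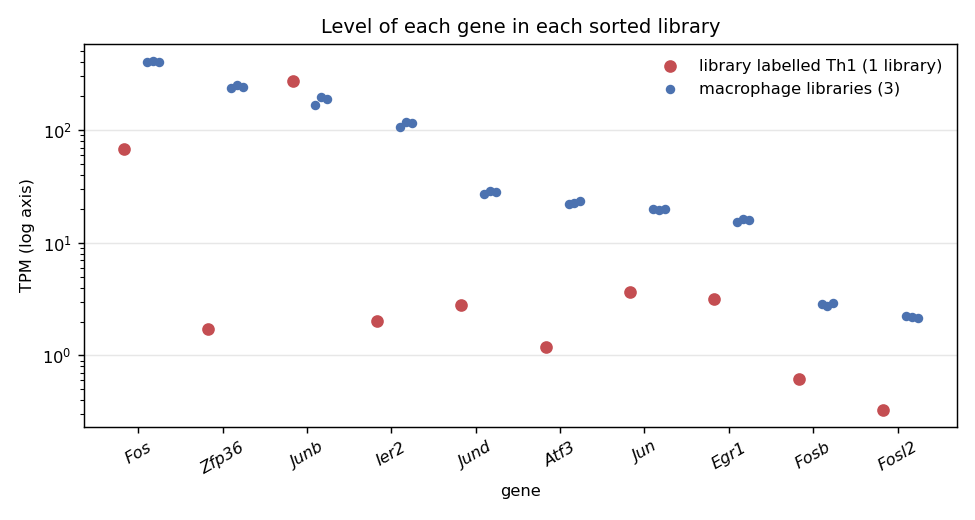
TPM of the 10 members on a log axis, with 1 point per library, the library labelled Th1 left of the 3 macrophage libraries, and genes ordered by their macrophage mean. In TPM as deposited, the library labelled Th1 lies below the macrophage libraries for 9 genes and above them for Junb (275.2 TPM against 166.77 to 198.53). The direction of Junb depended on scaling.

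In the macrophage libraries the members fell in the order Fos, Zfp36, Junb, Ier2, Jund, Atf3, Jun, Egr1, Fosb and Fosl2, and no neighbours in that order overlapped in TPM. Fos stood at the 98.3rd percentile of the detected genes in each of these libraries and Zfp36 at 97.7. The spread between the macrophage libraries was wider than counting error for some members and not for others. For Junb the SD was 10.8 times that expected from read counting, for Ier2 4.7 times and for Zfp36 4.43 times, and in all 3 genes library A was the lowest. For Jun, Fosl2 and Fosb it was below the counting SD, at 0.181, 0.562 and 0.737 times. When reads per kilobase of exon replaced TPM, 1 of 45 pairs of members changed order, Zfp36 and Junb.

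On read counts, 5 of the 10 members were called lower in the library labelled Th1 (edgeR quasi-likelihood test, TMM scaling, Benjamini-Hochberg adjusted p under 0.05 and at least 4-fold), namely Zfp36, Ier2, Atf3, Jund and Fosl2. None was called higher by that rule, Junb being past the p threshold but below 4-fold, while DESeq2 called Junb higher. Of all 11447 genes tested, 54.6% were called lower and 13.7% higher, so that the share of members called lower was near that of all genes. By TPM, 9 of 10 members lay below all macrophage libraries, as did 81.2% of the genes tested, and 1 of 10 lay above all of them, as did 17.5%. A fitted log2 fold change above 0 was found for 1 of 10 members and for 20.2% of the genes tested. The median log2 fold change of all genes was -5.61, and 4 of the 5 members called lower lay above it, Ier2 by 0.47, Atf3 by 2.0, Jund by 2.93 and Fosl2 by 3.47 on the log2 scale. At this setting their fall was thus smaller than that of the median gene. Ier2 lay above the median under only 5 of 11 settings, Atf3 under 8, Jund under 9 and Fosl2 under 10. The median itself depended on the setting and was -0.747 with limma on log2(TPM + 1). Only 2143 genes had 10 or more reads in the library labelled Th1, and the part of low reads in the median was not tested.

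Zfp36 had a log2 fold change of -6.48 (SE 0.17), the only member below the median of all genes under each of 11 settings of scaling, filter, test and left-out library (range -8.21 to -4.97, adjusted p 9.7e-262 to 7.44e-08 with edgeR, DESeq2 or limma). Ier2 followed at -5.15 (SE 0.25, range -6.87 to -3.63) and Atf3 at -3.61 (SE 0.31, range -5.34 to -2.10). These 3 genes were called lower under all 11 settings. Jund, at -2.68 (SE 0.20), was called lower under 9 of them and Fosl2, at -2.14 (SE 0.41), under 8. Fos, Jun, Egr1 and Fosb had log2 fold changes of -1.94, -1.82, -1.69 and -1.60, short of 4-fold here. Their values were negative under every setting, but only -0.42, -0.3, -0.177 and -0.087 under DESeq2 size factors. Junb had a log2 fold change of 1.22 (SE 0.077), above the median of all genes under all 11 settings, but its sign turned under scaling by library totals alone (-0.27) and by totals without S100a8 and S100a9 (-0.51). With 1 library labelled Th1 the spread in these tests comes from the macrophage libraries alone, and the SE does not hold the spread of the single library.

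Shares within a family do not depend on how libraries are scaled. Junb made up 97.69% of Jun family TPM in the library labelled Th1, against 78.01%, 80.27% and 79.76% in the macrophage libraries. By reads it was 96.11% in the library labelled Th1 (exact Clopper-Pearson 95% interval 95.03 to 97.01, counting error only), against 67.4%, 70.36% and 69.67%. Jun took 1.303% of Jun family TPM in the library labelled Th1 against 9.364%, 7.982% and 8.364%, and Jund 1.005% against 12.63%, 11.75% and 11.88% in the macrophage libraries. The Jun family reads were thus almost wholly Junb in this 1 library labelled Th1, with a Junb to Jun ratio of 75 in TPM against 8.33, 10.1 and 9.54 in the macrophage libraries. In the library labelled Th1 only 2143 genes had 10 or more reads, against 11013 to 11091 in the macrophage libraries. The part of this difference in the family shares was not tested. With 1 library against 3, an exact permutation test cannot give a p under 0.25. Junb overlaps Prdx2 on the opposite strand by 351 bases, and no source at hand states whether the counting used strand. Prdx2 stood at 119.69 TPM in the library labelled Th1 and at 87.28, 89.78 and 91.2 TPM in the macrophage libraries, and its part in the Junb level was not tested. Jun, Jund, Atf3 and Zfp36 also overlap annotated non-coding transcripts on the opposite strand, by 689, 919, 108 and 1274 bases, and their reads cannot be told apart from these without strand.

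Within the Fos family, Fos itself held 89.85% of TPM in the library labelled Th1 and 97.91%, 97.75% and 97.83% in the macrophage libraries. The difference was taken up by Fosl1, which encodes FRA-1 and is no member, with 7.128% of family reads (34 of 477, interval 4.986 to 9.818) in the library labelled Th1 against 0.6447%, 0.8248% and 0.7319%. Fosb had 1.468% of family reads in the library labelled Th1 (interval 0.592 to 3), which covers the macrophage values of 1.189% to 1.284%. Zfp36 TPM was 2.54% of Fos TPM in the library labelled Th1, against 58.8%, 61.2% and 59.1%, whereas the ratio of Fos to Egr1 was 21.3 in the library labelled Th1 and 26.1, 25.3 and 25.3 in the macrophage libraries. Between the sorted libraries the ratio of Fos to Egr1 therefore differed by less than that of Zfp36 to Fos, with Egr1 at 30 reads and Zfp36 at 9 in the library labelled Th1.

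**Figure D2:**
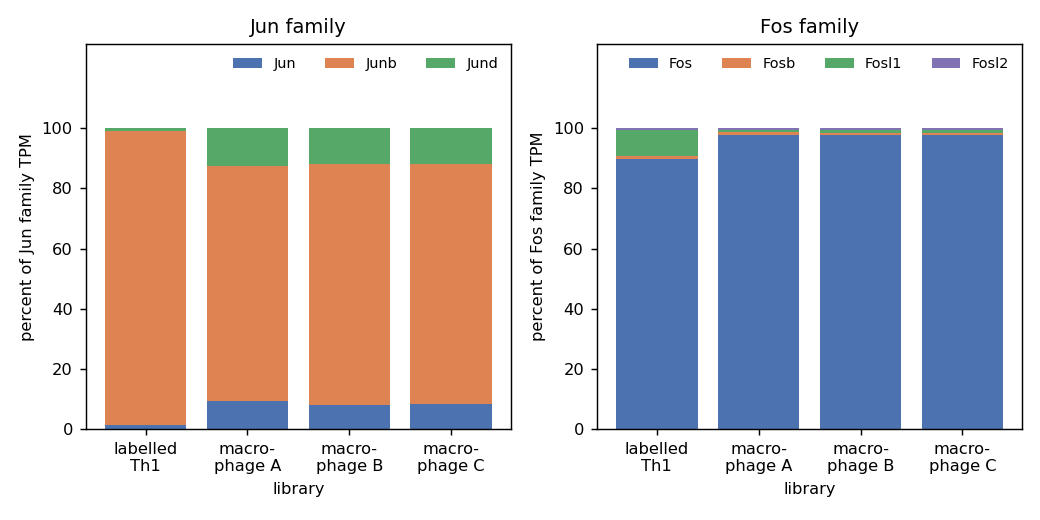
Stacked bars of the percent of family TPM held by each Jun family gene (left) and each Fos family gene (right) in each sorted library, the library labelled Th1 first. Junb holds 97.69% of the Jun family in the library labelled Th1, and Fosl1, at 8.892% of the Fos family there, is close to 1% in the macrophage libraries.

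In the OPC cultures the order of the members was another. The authors' deposited table gives the mean normalized count over both genotypes, which was divided by exon length to compare genes. Egr1 was highest in the authors' deposited table, with a mean of 6098 normalized counts, 1360 per kilobase and the 97.1st percentile of all genes. Jun followed in the authors' deposited table with a mean of 2681 normalized counts, 840.6 per kilobase and the 95.1st percentile. Egr1 and Jun were thus the high members in the cultures, while in the macrophage libraries both ranked below Fos, Zfp36, Junb and Ier2. Fos (131.6 per kilobase), Ier2 (109.8) and Junb (87.92) came next in the authors' deposited table, followed by Zfp36 (28.41), Fosl2 (17.14), Atf3 (14.14) and Fosb (2.357). By the authors' deposited table, Jun exceeded Junb 9.56-fold per kilobase and Egr1 exceeded Fos 10.3-fold, whereas in TPM Junb exceeded Jun and Fos exceeded Egr1 in each sorted library. The table holds no value per library, so the spread of these levels cannot be given, and the cultures and the sorted cells were processed separately. Transcripts of the OPC markers were present, with Pdgfra and Olig2 at means of 2251 and 2301 normalized counts in the authors' deposited table. Neuron markers were present too, at means of 579 to 122255 in the authors' deposited table, as were astrocyte markers, at means of 410 to 7753. The part of either in the members' levels was not tested.

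**Figure D3:**
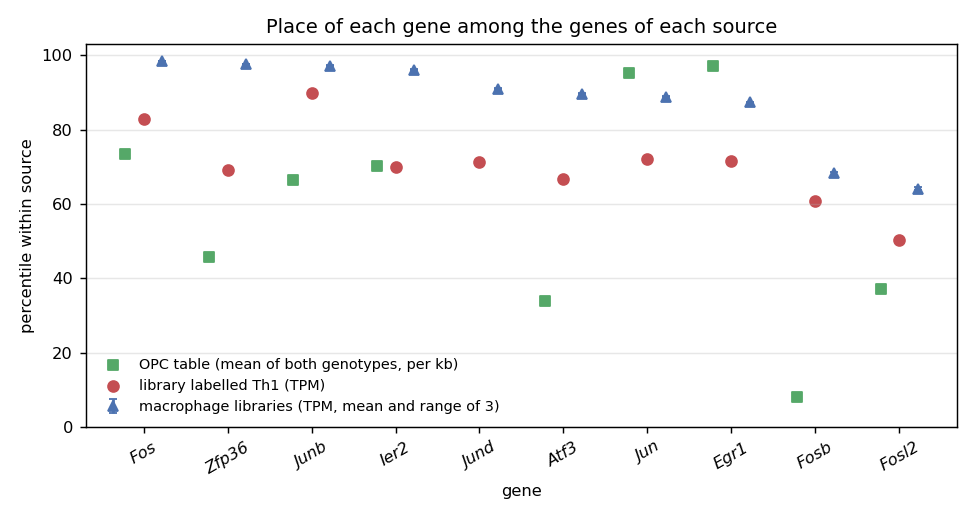
Percentile of each member among the genes of its source, by normalized counts per kilobase in the OPC table (squares), by TPM in the library labelled Th1 (circles) and by TPM in the macrophage libraries (triangles, mean with the range of 3). Egr1 and Jun stand at 97.1 and 95.1 in the OPC table, above their place in the sorted libraries. Fos, Zfp36, Junb, Atf3, Fosb and Fosl2 stand lower in the OPC table than in every sorted library. Percentiles of the sorted libraries count only genes with a TPM above 0, 6548 in the library labelled Th1. Those of the OPC table count every gene with a known exon length, so the scales differ.

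The comparison of the genotypes asks what loss of Apc does in OPCs. By the authors' deposited table, none of the 9 measured members reached an adjusted p below 0.05, while 0.393% of 19333 genes were called higher, 0.155% lower and 0.548% in either direction. All 9 had a log2 fold change above 0 in the authors' deposited table, with a median of 0.243, beside 50.3% of all genes above 0 and a median of 0.0014 over all genes. Per the authors' deposited table, Ier2, Egr1 and Junb, 3 of the 9, had a p under 0.05 before adjustment, as did 3.63% of all genes. The 9 genes respond to shared stimuli and are not independent, and their common sign was not tested.

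Ier2 had the largest fold change of the members in the authors' deposited table, with a mean of 213.4 normalized counts in Apc-deleted and 120.8 in wild-type cultures, as implied by its mean and fold change with equal group sizes. Its log2 fold change in the authors' deposited table was 0.82 (SE 0.32, 95% interval 0.19 to 1.46, p = 0.0112, adjusted p = 0.718). The Ier2 SE was 1.65 times the median of genes of similar mean in the authors' deposited table, and a change of 2.27-fold would have been needed for a call. Junb, at 230.2 in Apc-deleted and 174.4 in wild-type cultures, had a log2 fold change of 0.40 (SE 0.20, p = 0.0449) in the authors' deposited table. Egr1, at 6610 in Apc-deleted and 5585 in wild-type cultures, had a log2 fold change of 0.24 (SE 0.11, p = 0.0237) in the authors' deposited table. The adjusted p in the authors' deposited table was 1 for both Junb and Egr1. Each of these differences was smaller than the change needed for a call at its SE.

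Jun, at 2767 in Apc-deleted and 2594 in wild-type cultures, was the best resolved member in the authors' deposited table, with a log2 fold change of 0.09 and a 95% interval of -0.09 to 0.28. A 1.27-fold change of Jun would have been called in the authors' deposited table. Fos, at 337.9 in Apc-deleted and 281 in wild-type cultures, had a log2 fold change of 0.27 (interval -0.05 to 0.58, p = 0.101) in the authors' deposited table. For Fosl2, Zfp36, Atf3 and Fosb the log2 fold changes in the authors' deposited table were 0.19, 0.15, 0.46 and 0.04. The SEs beside them in the authors' deposited table were 0.19, 0.28, 0.43 and 0.49. The intervals of these 4 genes, of Fos and of Jun include 0 in the authors' deposited table, which does not show that the genotypes are alike. Some markers of OPCs and of phagocytes differed between the genotypes. Of 10 OPC markers, Matn4 (log2 fold change 1.01) was called higher and Gpr17 (-1.16) and Nkx2-2 (-1.44) lower in the authors' deposited table. The median of the 10 was 0.0155 in the authors' deposited table, and Olig2 (-0.03), Sox10 (0.0036), Ptprz1 (0.03) and C1ql1 (-0.06) lay close to 0. Of 13 macrophage and monocyte markers, 12 were above 0 and 4 were called higher in the authors' deposited table. These were Lyz2 (log2 fold change 4.33, SE 0.96), Mmp12 (4.76, SE 1.09), Gpnmb (4.49, SE 1.05) and Cd68 (1.54, SE 0.36). Their SEs were 7.12, 4.04, 7.9 and 1.98 times the median of genes of similar mean in the authors' deposited table. Others of that list, Csf1r (0.0096), Mertk (0.0015), Fcgr1 (0.054) and Itgam (0.12), lay close to 0 in the authors' deposited table. The part of either list in the members' values was not tested.

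**Figure D4:**
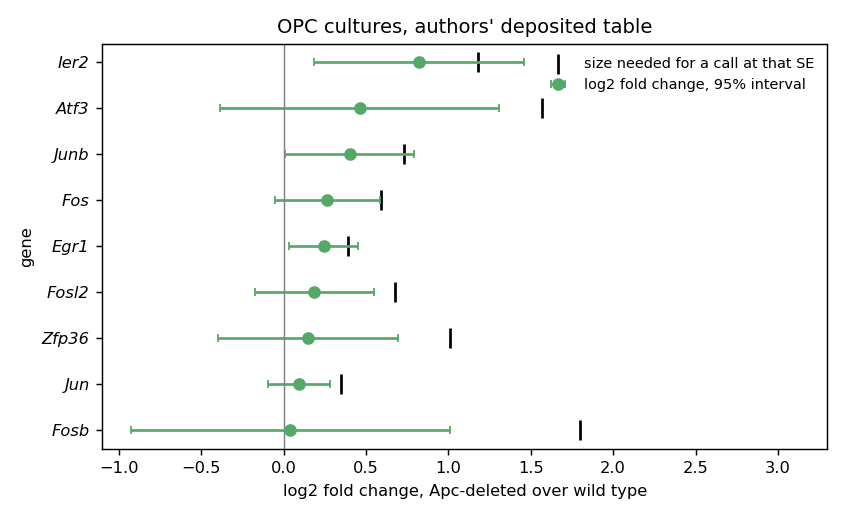
Log2 fold change, Apc-deleted over wild type, of the 9 members in the OPC table of the authors (points, with 95% intervals from the deposited SE), and the size at which each would have been called (black ticks). All points lie above 0, from 0.04 for Fosb to 0.82 for Ier2, and each lies short of its tick.

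Genes that act around the members in the same pathway were counted by list. Over all 19333 genes of the authors' deposited table, 0.393% were called higher and 0.155% lower, and 3.63% had an unadjusted p under 0.05. Such a p was found there for 7 of 36 other immediate early genes and 6 of 18 feedback inhibitors. It was also found for 2 of 25 upstream kinases and factors and 3 of 8 transcripts with AU-rich elements. Of the 36 other immediate early genes, 26 were above 0. No list was tested against the shares of all genes. Of 36 other immediate early genes, 2 were called higher and none lower in the authors' deposited table, Ier3, which encodes a survival protein, and Nr4a1, an orphan nuclear receptor. Ier3 had a log2 fold change of 0.82 (SE 0.19, adjusted p = 0.00432) and Nr4a1 one of 1.25 (SE 0.33, adjusted p = 0.0357) in the authors' deposited table, and the list had a median of 0.161. Of 25 upstream kinases and factors, 1 was called higher in the authors' deposited table, Map3k1, a kinase that feeds the JNK cascade (0.74, SE 0.16, adjusted p = 0.0019). Among 18 feedback inhibitors of MAP kinase signalling, 16 were above 0 and 1 was called higher in the authors' deposited table, Spry2, an inhibitor of receptor tyrosine kinase signalling (0.88, SE 0.22, adjusted p = 0.0154). The median of the feedback inhibitors in the authors' deposited table was 0.264, close to the members' 0.243. That list also holds Nfkbia and Tnfaip3, whose products chiefly restrain NF-kB, a separate signalling route. Neither the 17 measured dimer partners nor the 15 heat shock genes had a call in the authors' deposited table. The smallest p among the dimer partners belonged to Cebpb (1.19, SE 0.36, adjusted p = 0.133) and Atf4 (0.34, SE 0.14, adjusted p = 0.839), and in the authors' deposited table an unadjusted p under 0.05 was found for 2 of the 17. Among the heat shock genes it belonged to Hspa8 (-3.34, SE 1.11, adjusted p = 0.276) and Hspa1a (-0.61, SE 0.42, adjusted p = 1), and in the authors' deposited table an unadjusted p under 0.05 was found for 1 of the 15. Of 8 measured transcripts known to carry AU-rich elements, Ccl4, a chemokine of phagocytes and lymphocytes (7.0, SE 1.35, adjusted p = 0.000137), and Ier3 were called higher in the authors' deposited table. Ccl4 had a mean of only 22.05 normalized counts there, with 0.342 implied for wild-type cultures. Its SE was 3.12 times the median of genes of similar mean, so the size of its fold change is uncertain.

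**Figure D5:**
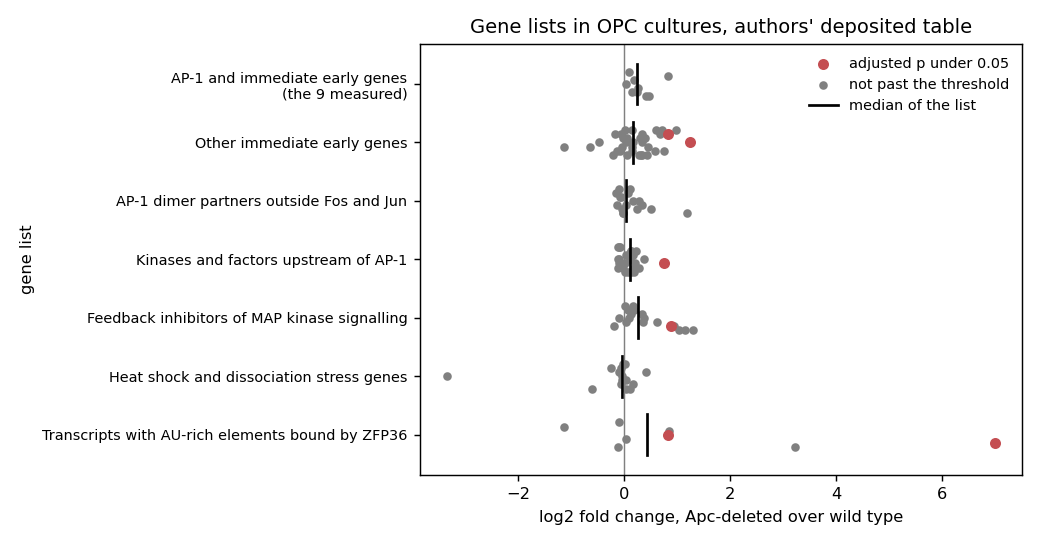
Log2 fold change, Apc-deleted over wild type, of each gene in the OPC table of the authors by list, with genes at an adjusted p under 0.05 in red and the list median as a black line. The members' median is 0.243, that of the feedback inhibitors 0.264 and that of the heat shock genes -0.0387.

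In the sorted cells the same lists held genes that went either way. The counts of calls in this and the following paragraphs stand beside 54.6% of all 11447 tested genes called lower and 13.7% called higher. No list was tested against these shares. Of 32 other immediate early genes tested, 7 were called higher and 12 lower in the library labelled Th1 (edgeR, as above), with a median log2 fold change of -1.81. Gadd45g, a growth arrest gene, stood at 842.73 TPM in the library labelled Th1 against 24.17, 26.15 and 25.95 TPM in the macrophage libraries. Its relative Gadd45b stood at 390.62 TPM in the library labelled Th1 against 24.43, 25.13 and 24.4 TPM. Ier5 (log2 fold change 5.03) and the antiproliferative Btg1 (3.19) were called higher as well. In the other direction, Btg2 stood at 2 TPM in the library labelled Th1 against 103.65, 103.78 and 104.72 TPM in the macrophage libraries. Klf2, Zfp36l2 and Trib1 were called lower as well, and Zfp36l2 encodes a relative of ZFP36 that binds the same elements. Other immediate early genes thus went in both directions.

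Of 19 dimer partners outside Fos and Jun, 2 were called higher and 13 lower in the library labelled Th1, with a median of -3.8. Cebpd (3.42) and Ddit3 (3.38), both C/EBP family genes, were higher, and Mafg (-3.80), Batf and Jdp2 lower. Batf had 0 reads in the library labelled Th1 and was at least 30.2-fold lower on library totals, taking 3 reads as the floor in that library, and Jdp2 at least 14.2-fold lower. Of 22 upstream kinases and factors, 4 were called higher and 14 lower. Map2k1, the ERK kinase MEK1, stood at 677.04 TPM in the library labelled Th1 against 7, 7.53 and 6.49 TPM in the macrophage libraries, while Map2k2, which encodes its close relative MEK2, stood at 0.14 TPM against 16.89, 17.41 and 17.51 TPM. Rps6ka1, Map2k4 and Mapk8 were called higher too, and Mapk3 (-4.96), which encodes an ERK kinase, lower. The p38 gene Mapk14 had 0 reads in the library labelled Th1 and was at least 40.4-fold lower on library totals.

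Of 12 feedback inhibitors tested, Spred2 (4.15) was called higher and 6 were called lower, among them Nfkbia (-5.99), Tnfaip3 (-3.64), Dusp5 (-3.26) and Dusp2, which had 0 reads in the library labelled Th1. In the heat shock list 14 of 16 genes were called higher and 2 lower, with a median of 4.95. The chaperone Hspa5 stood at 1000.22 TPM in the library labelled Th1 against 52, 52.67 and 52.87 TPM in the macrophage libraries, and Dnaja1 (5.72) and Hsp90aa1 (4.41) were higher as well. Hsf1 and Dnajb4 had 0 reads in the library labelled Th1 and were at least 9.43-fold and at least 3.2-fold lower on library totals, so that for Dnajb4 the bound falls short of the 4-fold of its call. Under every setting 12 or more heat shock genes were called higher. Of 14 transcripts with AU-rich elements, 2 were called higher, Ccl2 (2.72) and Ccl4 (2.38), and 8 lower. Il1b stood at 0.26 TPM in the library labelled Th1 against 404.55, 400.25 and 406.54 TPM in the macrophage libraries, and Ccl3 (-5.87) and Plaur (-5.08) were lower too. Cxcl2 had 0 reads in the library labelled Th1 and was at least 1206-fold lower on library totals.

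For the 3 members with the highest macrophage TPM, the nearest genes were sought by Euclidean distance of log2(TPM + 1) over the 4 sorted libraries. Gpx4 (distance 0.533), Psme2 and Atp6v1f were nearest to Fos. Atp5g3 (0.095), Rab5if and Higd2a were nearest to Zfp36. Trappc1 (0.208), Card19 and Bloc1s1 were nearest to Junb. None of these 9 genes is in the lists of immediate early or pathway genes, which hold only a small part of all genes. The 3 macrophage libraries lay close to each other, so nearness rests mainly on their shared level and that of 1 other library. It does not show shared regulation.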

How the data were processed

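The genome build was GRCm38, per the submitters' processing notes, and neither the aligner nor the counting tool is named in the sources used here. For the OPC cultures the authors deposited 1 comparison with mean normalized counts (a signal), log2 fold changes with SE, a statistic (a score equal to the log2 fold change over its SE), p-values and adjusted p-values. The table names no numerator, and the sign was turned to Apc-deleted over wild type from the Wnt targets Notum, Sp5, Lef1 and Axin2. For the sorted cells, per the file headers, the authors deposited TPM, read counts and normalized read counts, and 5 columns were not used. The deposited read counts are estimated counts, since not all are whole, and were rounded here, with blanks set to 0.

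Counts were tested with edgeR 4.0.16 in R 4.3.3, with limma 3.58.1 and DESeq2 1.42.0 as alternatives. On simulated counts for the library labelled Th1 over macrophages (11447 genes), an 8-fold rise was called in 50 of 50 genes and an 8-fold fall in 48 of 50. A 3-fold rise was called in 0 of 50, a 3-fold fall in 7 of 50, and no change in 0 of 11247. In the simulation most genes were unchanged, unlike in the data. The simulated library labelled Th1 was also given the spread of the macrophage libraries. These rates therefore do not cover the unknown spread of the real single library.

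The floor, 3 reads, amounts to 0.983 CPM for the library labelled Th1 and to between 0.127 and 0.129 CPM for the macrophage libraries. Gene positions and lengths came from GENCODE M21. The members and lists were chosen with earlier results of these data known. Besides the members, each list's genes past the threshold were named (all if 4 or fewer, otherwise the 4 with the smallest adjusted p in each direction), or else the 2 with the smallest p. A few genes that this rule takes are not reported here. Other settings changed scaling, filter, test, pseudocount, threshold and the left-out macrophage library.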

Additional observations from a re-analysis of the deposited data

How the results depend on the processing

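The number of members called lower in the library labelled Th1 was 5. It was 3 under DESeq2 size factors and the DESeq2 test. It was 9 under library totals alone, totals without S100a8 and S100a9, no filter, limma on log2(TPM + 0.1) and no minimum fold. The number called higher was 0, and 1 under DESeq2 size factors, the DESeq2 test and no minimum fold. Leaving out each macrophage library in turn kept both counts. At the main setting 54.6% of all 11447 genes tested were called lower and 13.7% higher. These shares are not given for the other settings. The counts of members and pathway genes there therefore cannot be set against those of all genes. Of the pathway genes, 53 were called lower, and 30 under DESeq2 size factors, 24 under the DESeq2 test and 28 under limma on log2(TPM + 1), but 73 under library totals alone and 74 under totals without S100a8 and S100a9. Of these genes 30 were called higher, and 19 under totals without S100a8 and S100a9. The log2 fold change of Junb reversed from 1.22 to -0.27 under library totals alone, to -0.51 under totals without S100a8 and S100a9 and to -0.28 with the macrophage libraries summed to 1, a setting chosen after seeing the data. The median log2 fold change of all genes lay between -6.37 and -4.32 under the 4 scalings tried, at -4.42 with no filter, at -1.71 in the DESeq2 test, and at -2.47 and -0.747 with limma on log2(TPM + 0.1) and log2(TPM + 1), which change the measure and the test as well. The cause of the changed calls was not tested. In the OPC table no member was called under any threshold tried, and 5 pathway genes were called higher, or 3 by Benjamini-Yekutieli adjustment. No paired analysis was possible because the OPC table holds no value per library and the sorted groups share fewer than 2 replicate numbers. Zfp36, Ier2, Atf3, Fosb and Fosl2 each had 9 reads or fewer in the library labelled Th1, so that counting error is wide there. The cause of these low counts was not tested.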
